A study of Caenorhabditis elegans with 24 samples.

Results

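The nuclear hormone receptor genes of Caenorhabditis elegans were taken as every gene of the count table whose identifier carries a name that starts with nhr-. There were 268 of them among 20392 genes, out of 269 such names in the name table (nhr-93 has no row). Their transcripts were followed in dissected adult intestines of a control, TIR1, and of Pol I-AID, called strains here, sampled before auxin (0 h, 0 mM) and after it had been present at 1 mM for 12 or 24 h. The 6 groups held 4 biological replicates each, 24 libraries in all. Both strains carry ieSi57, a transgene that expresses TIR1, a plant protein that marks degron-tagged proteins for destruction when auxin is present. It is driven by the eft-3 promoter, which acts in all tissues, so depletion was not limited to the intestine. TIR1 has no other transgene, and its listed genotype also holds unc-119(ed3) III. Pol I-AID carries in addition qzIs15, which puts a degron and GFP on RPOA-2, part of RNA polymerase I, the enzyme that transcribes the ribosomal RNA genes. Auxin was given to both strains, at day 1 of adulthood and with food. Each was represented by a pair of lines. Replicate 1 used DCW143 (TIR1) and DCW180 (Pol I-AID), outcrossed 1 time, whereas DCW448 (TIR1) and DCW447 (Pol I-AID), outcrossed 3 times, gave replicates 2 to 4, and each library pooled the intestines of several animals.

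Nuclear receptors are transcription factors with a zinc-finger domain that binds DNA and a domain that can bind a small lipophilic ligand. In vertebrates and flies the family is small, whereas in nematodes it has expanded, mostly from an ancestor related to HNF4, the hepatocyte nuclear factor of vertebrates. In the worm intestine, which serves as gut, liver and fat store, members of the family are known to control fatty acid desaturation and oxidation, vitamin B12 dependent metabolism, cholesterol balance, and the response to toxins and pathogens.

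The libraries held 3.18 M to 29.5 M counts (M, 1e6 counts), of which 1.03 M to 9.01 M lay outside the vitellogenin genes. The smallest were TIR1 0 h replicate 3 and TIR1 24 h replicate 1. Markers of the intestine summed to 4605 to 11191 counts per 1e6 counts outside the vitellogenins (ppm), and each of the 9 had counts in at least 1 library. All other tissue lists summed to at most 696 ppm. The germline list was highest in 1 Pol I-AID 0 h library (268 ppm, against at most 83.0 ppm in the other groups), and the muscle and hypodermis lists reached 555 and 696 ppm in TIR1 at 0 h, where the hypodermal collagen col-10 was at 0 as in every group. The transcript of rpoa-2, the tagged gene, stood at 0 to 34 counts per library. The degron acts on the protein, so these counts do not measure its loss.

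Of the 268 receptor genes, 42 had no count in any library and 226 had at least 1. A total of 138 (51.5%) were measured in the intestine, meaning at least 3 counts in all 4 libraries of at least 1 group. In all 6 groups this held for 82. The number measured per group was 98, 130 and 96 in TIR1 at 0, 12 and 24 h, and 117, 121 and 117 in Pol I-AID. The 2 lowest numbers belong to the groups that hold the 2 smallest libraries. A filter on low counts kept 134 receptor genes (50%) for testing, against 33.9% of all genes. Of these 134, 131 were also measured, and 7 measured genes were not tested.

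Levels of different genes were compared as RPKM, here CPM on TMM-scaled library sizes divided by the exon length in kilobases. Most receptor transcripts were rare. A mean over the 24 libraries of at least 10 RPKM was reached by 9 genes. Another 73 lay between 1 and 10 RPKM, 65 between 0.1 and 1 RPKM, and 121 under 0.1 RPKM. The 3 highest genes held 17.8% of the summed RPKM of the family and the 10 highest held 37.8%. The median over the 134 tested members was 1.45 RPKM and that over all 6903 tested genes 1.31 RPKM. Exon length ran from 490 to 3961 bases in the family, with a median of 1287, and the median of the tested members was 1387.5 bases against 1588 for all tested genes.

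**Figure D1:**
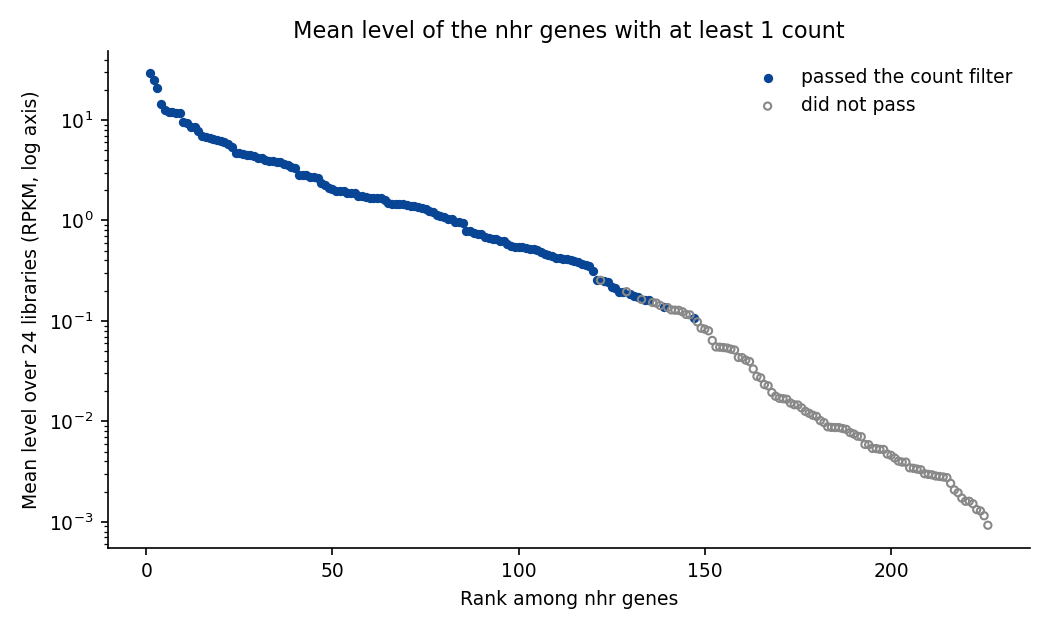
Mean level over 24 libraries (RPKM, log axis) of the 226 nhr genes with at least 1 count, in order of level; filled points passed the count filter (134) and open points did not. The curve falls from 29.1 RPKM for nhr-80, and 9 genes lie at or above 10 RPKM.

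The 3 receptors with the highest mean level all have known roles in intestinal metabolism. First was nhr-80 (WBGene00003670), a receptor of the HNF4 type that promotes transcription of stearoyl-CoA desaturase genes. It stood at 29.1 RPKM on average, with library values from 19.9 to 47.9 RPKM. The second, nhr-49 (WBGene00003639), takes the place that PPARα has in mammals, as an activator of fatty acid desaturation, fatty acid oxidation and the fasting response. Its mean was 24.8 RPKM and its range 12.6 to 37.2 RPKM. The third was nhr-114 (WBGene00003704), which induces genes of the methionine/S-adenosylmethionine cycle, at a mean of 20.7 RPKM. The order of these 3 is not fixed by the data, since at 0 h the values of nhr-80 and nhr-49 overlapped in both strains.

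The range of nhr-114, from 16.9 to 25.7 RPKM, was narrow beside that of nhr-49. Behind these came nhr-8, a relative of the vertebrate liver X receptor with roles in cholesterol balance and toxin resistance, at 14.4 RPKM, and nhr-58 at 12.5 RPKM. The next 5 were nhr-232 (12.1 RPKM), nhr-133 (11.9 RPKM), nhr-68 (11.9 RPKM), nhr-176 (11.7 RPKM) and nhr-106 (9.45 RPKM), whose library values overlapped widely. Of these, nhr-68 acts in the propionate shunt and nhr-176 in the response to the drug thiabendazole. The count of nhr-232 is less certain, as 21.5% of its exon bases overlap sri-18 on the opposite strand in the annotation and the kit does not keep strand.

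**Figure D2:**
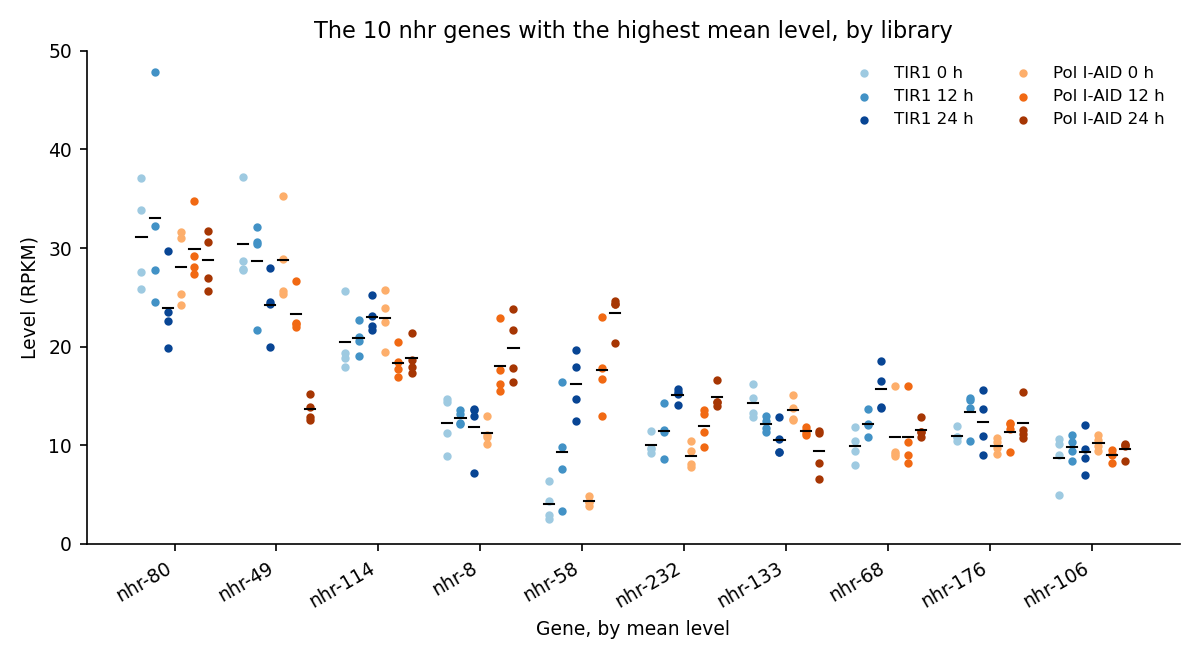
Level (RPKM) of the 10 nhr genes with the highest mean, 1 point per library, coloured by group, with a bar at the mean of 4 libraries. In Pol I-AID nhr-49 has a mean of 13.6 RPKM at 24 h against 28.8 RPKM at 0 h, and nhr-58 a mean of 23.4 RPKM against 4.33 RPKM.

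From a list of 10 members with a close relative in vertebrates or flies, which leaves out receptors of the HNF4 type, 4 passed the count filter. These were nhr-8, nhr-48, nhr-41 and nhr-6. The means of nhr-48 (a relative of the xenobiotic receptors), nhr-41 (TR2/TR4 type) and nhr-6 (NR4A type) were 0.505, 0.216 and 0.139 RPKM. The molting receptor nhr-23 (ROR type) and nhr-25 (NR5A type) reached at most 8 and 9 counts in a library. For nhr-67, nhr-85, nhr-91 and nhr-111 the highest library held 6, 2, 1 and 2 counts. All 7 fat metabolism receptors, all 3 vitamin B12 and propionate receptors, and all 7 receptors of stress, xenobiotics and pathogens were tested. Of 5 receptors outside the nhr- names, 1, the dauer receptor daf-12, was tested.

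The first question was how the receptors move with time on auxin in the control. No group was kept without auxin to 12 or 24 h, so the age of the animals and auxin cannot be told apart. A gene is called here at a Benjamini-Hochberg adjusted p (FDR) under 0.05 over all 6903 genes, by edgeR's quasi-likelihood test, with a change of at least 2-fold. In TIR1 at 12 h against 0 h, 3 members rose (nhr-202, nhr-58 and nhr-11) and 1 fell (nhr-99), which is 2.99% of 134 beside a background of 2.58% of all genes (2.07% higher and 0.507% lower). At 24 h 11 rose and 4 fell, 11.2% against 9.71% of all genes (6.55% higher and 3.16% lower). In Pol I-AID 6 rose and 4 fell at 12 h, 7.46% against 8.13% of all genes (5.71% higher and 2.42% lower). At 24 h 15 rose and 8 fell, 17.2% against 17.4% of all genes (10.8% higher and 6.53% lower). By the FDR alone 5 and 25 members passed in TIR1 (background 4.65% and 16.3%) and 19 and 40 in Pol I-AID (background 14.3% and 27.8%). The share of members called was thus close to that of all genes in each of these 4 comparisons. Fewer cells of a type and less RNA per cell cannot be told apart in such libraries. The intestinal markers fell alongside, from a median of 9145 ppm at 0 h to 5853 ppm at 24 h in TIR1 and from 9784 to 5023 ppm in Pol I-AID, and their part in these results was not tested.

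The direction of these counts depended on the scaling. When libraries were scaled to total counts, the median log2 fold change of all genes at 24 h moved to -0.41 in TIR1 and -0.32 in Pol I-AID. The members then split into 7 higher and 16 lower in TIR1 and into 10 higher and 17 lower in Pol I-AID. Scaled to the counts outside the vitellogenins, the members split into 11 higher and 2 lower at 12 h and 20 higher and 4 lower at 24 h in Pol I-AID, where the medians of all genes were 0.28 and 0.12. The 9 members that rose at 24 h in both strains under TMM, and both that fell, kept their direction under each scaling.

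After 24 h, 9 receptors had risen in both strains (nhr-3, nhr-11, nhr-14, nhr-21, nhr-58, nhr-62, nhr-84, nhr-137 and nhr-202) and 2 had fallen in both (nhr-104 and nhr-115). Of the 27 members called at 24 h in either strain, 11 were called in both, and none of these in opposite directions. The share of all genes called in both strains was not computed. Over the 134 members, the log2 fold changes of the 2 strains had a Pearson correlation of 0.52, and over all 6903 genes it was 0.474. These comparisons share no library, though genes are not independent replicates and both rest on the same time points, batches and dissections.

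**Figure D3:**
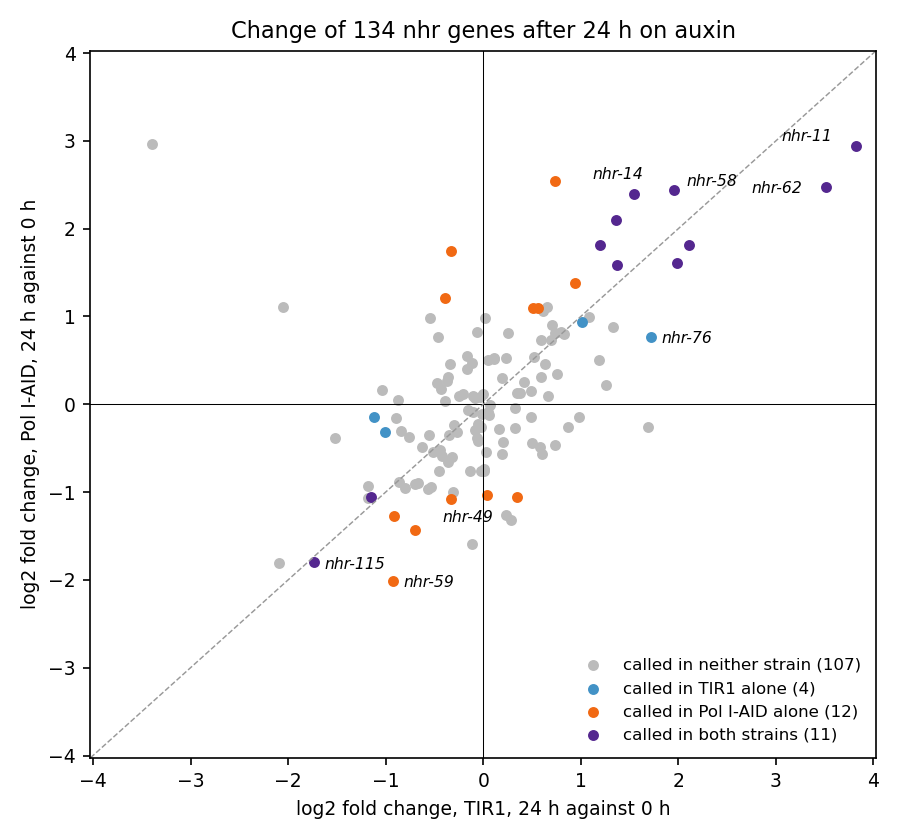
Log2 fold change from 0 to 24 h on auxin for the 134 tested nhr genes, TIR1 on the x axis and Pol I-AID on the y axis, with the line of equality dashed. Of these, 11 were called in both strains, 4 in TIR1 alone, 12 in Pol I-AID alone and 107 in neither, and nhr-49 lies below the line.

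Of the receptors with a known role, nhr-14 rose in both strains. It is a receptor of the HNF4 type that affects iron uptake and resistance to Pseudomonas aeruginosa. At 0 h its TIR1 libraries stood at 2.74, 1.85, 0.782 and 2.62 RPKM and at 24 h at 6.88, 4.74, 6.09 and 7.23 RPKM. In Pol I-AID they went from 2.76, 1.36, 1.47 and 1.88 RPKM to 9.91, 8.65, 10.2 and 10.5 RPKM. Every 24 h library lay above every 0 h library of its strain. The log2 fold change was 1.55 (SE 0.26, edgeR FDR 0.000136) in TIR1 and 2.40 (SE 0.26, edgeR FDR 7.39e-08) in Pol I-AID. At 12 h only Pol I-AID passed (1.04, edgeR FDR 0.00479), close to 2-fold. That call was lost without Pol I-AID 0 h replicate 2 or 3 or Pol I-AID 12 h replicate 1 or 3, at 0.91 to 0.99.

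The receptor nhr-58, for which no role is stated here, rose from a moderate level into the range of the most abundant members. Its TIR1 libraries held 6.39, 2.93, 2.58 and 4.4 RPKM at 0 h, 16.4, 7.62, 9.81 and 3.36 RPKM at 12 h, and 12.4, 14.6, 19.7 and 17.9 RPKM at 24 h. In Pol I-AID they held 4.91, 4.27, 4.3 and 3.83 RPKM at 0 h, 23, 13, 17.9 and 16.7 RPKM at 12 h, and 24.3, 24.6, 20.4 and 24.3 RPKM at 24 h. In Pol I-AID all later libraries lay above all 0 h libraries, whereas in TIR1 at 12 h replicate 4 lay within the 0 h range. At 24 h the log2 fold change was 1.95 (SE 0.32, edgeR FDR 0.00012) in TIR1 and 2.44 (SE 0.32, edgeR FDR 1.46e-06) in Pol I-AID. The group means at 24 h were 16.2 and 23.4 RPKM. Its 12 h change in TIR1 (1.14, edgeR FDR 0.0347) was lost without any 1 of TIR1 0 h replicates 2 to 4 or TIR1 12 h replicates 1 and 3 (FDR 0.0755 to 0.239).

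A further member, nhr-3, rose from 2.40 ± 0.139 RPKM (SD, n = 4) to 6.15 ± 1.04 RPKM in TIR1 and from 2.05 ± 0.671 to 6.14 ± 1.53 RPKM in Pol I-AID. Its log2 fold changes were 1.37 (edgeR FDR 0.00138) and 1.59 (edgeR FDR 7.75e-05), and 1.72 at 12 h in Pol I-AID (edgeR FDR 6.28e-05). Scaling to total counts left the TIR1 change at 0.98, just under 2-fold. At 12 h in TIR1 replicate 4 stood at 2.04 RPKM, at the 0 h level, beside 4.52 to 6.18 RPKM in the other replicates. The same library was also the lowest of its group for nhr-58 and nhr-11 and the highest for nhr-115 and nhr-99. Without it 7 members were called in TIR1 at 12 h in place of 4. Without TIR1 0 h replicate 2, TIR1 12 h replicate 1 or TIR1 12 h replicate 3 the number was 1, and without TIR1 12 h replicate 2 it was 2.

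Several of the risers are rare transcripts. The receptor nhr-202 rose from 0.600 ± 0.0575 to 2.40 ± 0.505 RPKM in TIR1 (log2 fold change 1.99, edgeR FDR 9.87e-05) and from 0.714 ± 0.332 to 2.20 ± 0.67 RPKM in Pol I-AID (1.61, edgeR FDR 0.00017). For nhr-62, which is required for the long life of diet-restricted worms, the TIR1 libraries held 2, 2, 2 and 0 counts at 0 h and 8, 12, 16 and 26 counts at 24 h. In Pol I-AID they held 18, 10, 2 and 2 counts at 0 h and 33, 30, 37 and 32 counts at 24 h. Its log2 fold changes, 3.51 and 2.47 (edgeR FDR 0.00419 and 0.00426), start from libraries under the floor of 3 counts, and their size depends on the prior count of the fit. The same holds for nhr-11, with 0, 0, 2 and 8 counts at 0 h in TIR1 and 18, 17, 42 and 29 counts at 24 h (3.83, edgeR FDR 0.00143).

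Among the other members that rose in both strains, nhr-137 went from 0.883 ± 0.362 to 3.79 ± 1.17 RPKM in Pol I-AID (2.10, edgeR FDR 0.000158) and nhr-84 from 0.730 ± 0.101 to 2.54 ± 0.828 RPKM (1.81, edgeR FDR 0.000232). In TIR1 they rose by 1.36 and 1.20 (edgeR FDR 0.023 and 0.0197), calls that were lost without single libraries. For nhr-137 these were TIR1 0 h replicate 2, TIR1 0 h replicate 4 and TIR1 24 h replicate 1 (FDR 0.0597 to 0.0619). For nhr-84 they were TIR1 0 h replicate 4 and TIR1 24 h replicates 3 and 4 (FDR 0.0635 to 0.0691), and scaled to total counts its change was 0.85. The rise of nhr-21 was lost in TIR1 without TIR1 0 h replicate 4 or TIR1 24 h replicate 3 (FDR 0.0763 to 0.0848). In Pol I-AID it was lost without Pol I-AID 0 h replicate 1 or Pol I-AID 24 h replicate 1 (FDR 0.0504 to 0.0757). The receptor nhr-76, which acts in the intestine in serotonin-dependent fat loss, rose in TIR1 from 0.576 ± 0.0808 to 1.90 ± 0.184 RPKM (1.72, edgeR FDR 0.00357). In Pol I-AID it stood at 0.715 ± 0.31 and 1.22 ± 0.537 RPKM (0.77, edgeR FDR 0.141), and the difference between the strains in this change was -0.95 (edgeR FDR 0.333, 95% interval -2.07 to 0.17).

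The receptor nhr-86, which senses a bacterial phenazine and induces anti-pathogen genes, was called in Pol I-AID. Its libraries went from 5.65, 4.15, 4.04 and 4.87 RPKM at 0 h to 11.2, 11.2, 10.7 and 6.72 RPKM at 24 h, without overlap (1.10, edgeR FDR 0.000321). Scaled to total counts the change was 0.85, under 2-fold. In TIR1 it was 0.56 (edgeR FDR 0.0897), and the difference between the strains was 0.53 (edgeR FDR 0.342). In Pol I-AID at 24 h nhr-162 also rose, by 2.55, at up to 23 counts in a library (edgeR FDR 0.0112), and nhr-4 by 1.21 (edgeR FDR 0.00615).

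**Figure D4:**
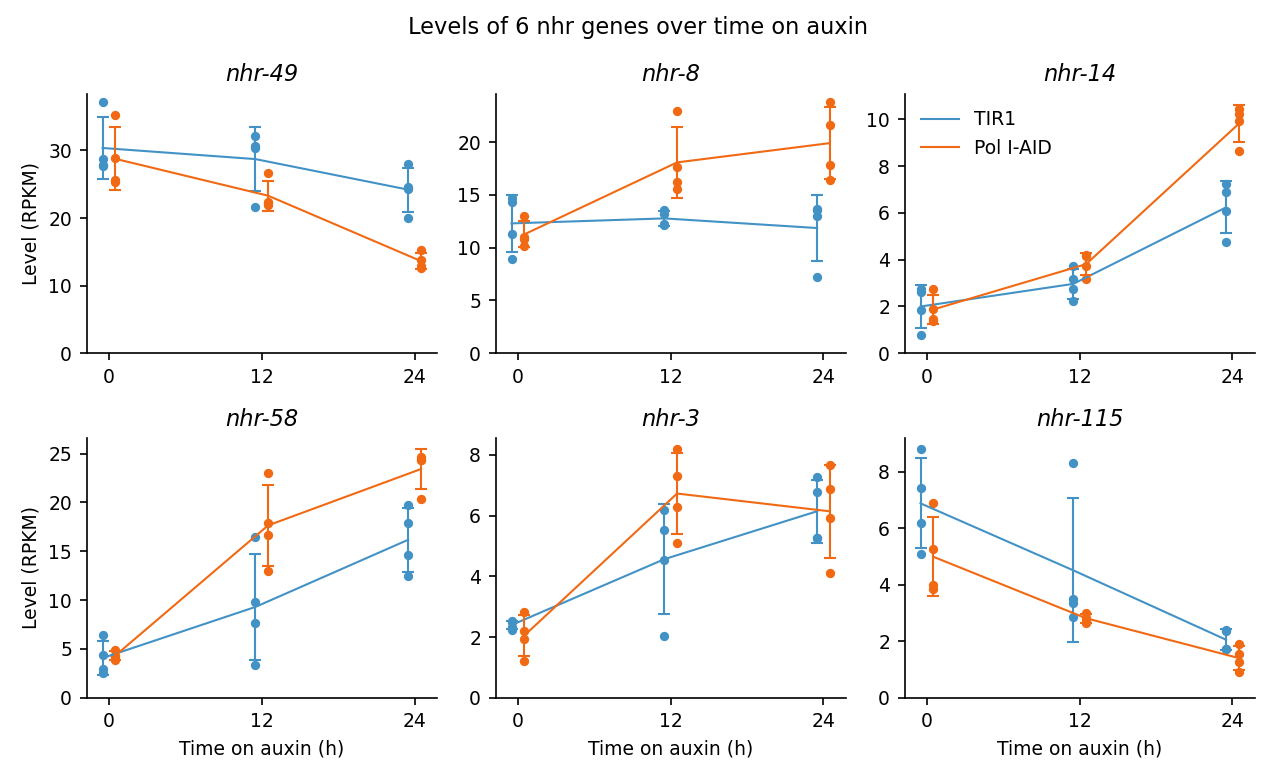
Level (RPKM, axis from 0) of 6 nhr genes over time on auxin, 1 point per library, lines through the means and bars of 1 SD (n = 4), TIR1 in blue and Pol I-AID in orange. In Pol I-AID at 24 h nhr-49 lies below all other groups (12.6 to 15.2 RPKM), nhr-8 lies above its TIR1 libraries (16.4 to 23.8 RPKM), and nhr-14, nhr-58 and nhr-3 are higher and nhr-115 lower than at 0 h in both strains.

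Of the 2 receptors that fell in both strains, nhr-115 had the larger changes. In TIR1 it dropped from 6.2, 7.43, 5.1 and 8.8 RPKM to 1.74, 2.38, 2.39 and 1.72 RPKM. In Pol I-AID the values were 5.25, 3.98, 3.87 and 6.88 RPKM at 0 h and 1.54, 1.92, 1.27 and 0.902 RPKM at 24 h. No 24 h library reached any 0 h library, and the log2 fold changes were -1.74 (SE 0.30, edgeR FDR 0.000205) and -1.80 (SE 0.30, edgeR FDR 4.2e-05). The other receptor lower in both strains, nhr-104, moved by -1.15 in TIR1 (edgeR FDR 0.00419) and by -1.06 in Pol I-AID (edgeR FDR 0.00309). When Pol I-AID 0 h replicate 4, Pol I-AID 24 h replicate 3 or Pol I-AID 24 h replicate 4 was left out the latter was -0.98 to -0.92, under 2-fold, and scaled to counts outside the vitellogenins it was -0.87.

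In Pol I-AID nhr-59 fell by 2.01 on the log2 scale (edgeR FDR 9.14e-05), nhr-13 by 1.44 (edgeR FDR 0.00348) and nhr-193 by 1.27 (edgeR FDR 0.00098) at 24 h. In TIR1 the same genes moved by -0.93 (edgeR FDR 0.0702), -0.70 (edgeR FDR 0.2) and -0.92 (edgeR FDR 0.022, under 2-fold). The difference between the strains in this change was -1.09 for nhr-59 (edgeR FDR 0.194), -0.74 for nhr-13 (edgeR FDR 0.443) and -0.35 for nhr-193 (edgeR FDR 0.684), so a difference in these falls was not shown. Also nhr-78 fell, by 1.03 (edgeR FDR 0.00129), to -0.99 to -0.97 without Pol I-AID 0 h replicate 2 or Pol I-AID 24 h replicates 3 or 4, and to -0.85 with scaling outside the vitellogenins. In TIR1 nhr-273 and nhr-286 fell, by 1.12 (edgeR FDR 0.0328) and 1.01 (edgeR FDR 0.00759). In Pol I-AID they moved by -0.14 (edgeR FDR 0.807) and -0.32 (edgeR FDR 0.383), and the differences between the strains, 0.98 (edgeR FDR 0.252) and 0.69 (edgeR FDR 0.263), did not pass. The call of nhr-273 was lost without 1 of TIR1 0 h replicates 1, 3 and 4 or TIR1 24 h replicates 1 and 2 (FDR 0.0507 to 0.146). That of nhr-286 dropped under 2-fold without 1 of TIR1 0 h replicates 2 and 4 or TIR1 24 h replicates 1 and 4 (-0.99 to -0.86). The remaining 5 members called at 24 h, beyond those named for each contrast and direction, had log2 fold changes of 1.02 in TIR1 and of 1.10, 1.38, 1.75 and -1.05 in Pol I-AID.

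Over time 3 receptors were called at 12 h and not at 24 h, nhr-99, nhr-96 and nhr-206. In TIR1 nhr-99 went from 8.99, 10.8, 5.55 and 8.51 RPKM at 0 h to 3.92, 1.78, 2.39 and 6.56 RPKM at 12 h and 3.9, 5.48, 7.23 and 5.28 RPKM at 24 h. In Pol I-AID it held 6.17, 8.04, 7.66 and 8.29 RPKM, then 2.64, 2.62, 1.51 and 1.74 RPKM, then 8.04, 3.78, 5.51 and 4.12 RPKM. The 12 h libraries of Pol I-AID lay below all its 0 h libraries, in TIR1 replicate 4 at 12 h overlapped the 0 h range, and at 24 h the ranges overlapped again. The log2 fold change at 12 h was -1.82 (SE 0.32, edgeR FDR 0.000192) in Pol I-AID and -1.23 (edgeR FDR 0.0212) in TIR1, where it was lost without TIR1 0 h replicate 2 or any 1 of TIR1 12 h replicates 1 to 3 (FDR 0.054 to 0.113). Also at 12 h in Pol I-AID nhr-96 fell by 1.39 (edgeR FDR 0.0107). There nhr-206 fell by 1.31 (edgeR FDR 0.0381), a call lost without any 1 of the Pol I-AID 0 h libraries or Pol I-AID 12 h replicates 1, 2 and 4 (FDR 0.0503 to 0.125). The fall of nhr-59 at 12 h, by 1.05 (edgeR FDR 0.0323), was lost without Pol I-AID 0 h replicates 1 or 3 or Pol I-AID 12 h replicates 2 to 4 (FDR 0.0611 to 0.15).

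The comparison of Pol I-AID with TIR1 asks which receptors differ when RNA polymerase I is depleted. Before auxin none of the 134 members was called by edgeR, beside 0.174% of all genes (0.0435% higher, 0.13% lower, and 0.217% by the FDR alone), and 6 members (4.48%) had an unadjusted p under 0.05, against 9.04% of all genes. DESeq2 also called none. At 12 h 1 member was lower in Pol I-AID (0.746%, against 2.46% of all genes, 1.94% higher and 0.522% lower), namely nhr-13. At 24 h 1 was lower (0.746%, against 7.71% of all genes, 4.35% higher and 3.36% lower), namely nhr-180. Without the 2-fold limit 3 members passed the FDR at 12 h (2.24%, against 5.39% of all genes) and 8 at 24 h (5.97%, against 13.8% of all genes). The strain comparison thus called a smaller share of the receptor family than of all genes at both times, but each called share is 1 gene. An unadjusted edgeR p under 0.05 was found for 14.2% of members against 15.8% of all genes at 12 h. At 24 h it was found for 21.6% against 26.5%. The difference of the shares was not tested. Which members were called, and so the split by direction, depended on the scaling, while nhr-13 and nhr-180 reversed under none of the alternatives. Scaled to total counts, 2 members were higher and 0 lower at 12 h, and 0 higher and 2 lower at 24 h. The medians of all genes were 0.00 and -0.08 with that scaling. Scaled to the counts outside the vitellogenins, 2 were higher at 12 h, 1 was higher at 24 h and 0 were lower. With this second scaling the medians of all genes were 0.19 and 0.13.

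The clearest difference at 24 h was in nhr-49, the second most abundant receptor, though it stayed under 2-fold. At 0 h its TIR1 libraries held 28.7, 27.7, 27.9 and 37.2 RPKM and those of Pol I-AID 28.9, 25.3, 25.6 and 35.3 RPKM. At 12 h TIR1 held 30.6, 21.7, 32.2 and 30.4 RPKM and Pol I-AID 26.6, 22, 22.4 and 22.3 RPKM. At 24 h TIR1 held 28, 24.6, 24.3 and 20 RPKM and Pol I-AID 15.2, 13.8, 12.9 and 12.6 RPKM. The ranges overlapped at 0 and 12 h, and at 24 h every Pol I-AID library lay below every TIR1 library. The log2 fold change between the strains was -0.08 at 0 h (edgeR FDR 0.922), -0.30 at 12 h (edgeR FDR 0.313) and -0.82 at 24 h (SE 0.15, edgeR FDR 0.000374, 95% interval -1.13 to -0.52). The 24 h value passed the FDR under all 21 alternatives run, at -0.91 to -0.69.

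Within Pol I-AID nhr-49 fell by 1.08 on the log2 scale from 0 to 24 h (SE 0.15, edgeR FDR 3.03e-06), while the change in TIR1 was -0.33 (SE 0.15, edgeR FDR 0.131). When its highest 0 h library, Pol I-AID 0 h replicate 4, was left out the fall was 0.96 and thus under 2-fold, and with scaling outside the vitellogenins it was 0.89. The difference between the 2 changes over time was -0.74 (SE 0.21, edgeR FDR 0.026). That FDR rose above the threshold, to 0.051 to 0.0646, without TIR1 0 h replicates 1 or 2, TIR1 24 h replicate 1, Pol I-AID 0 h replicate 4 or Pol I-AID 24 h replicate 4, with the value at -0.71 to -0.63.

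The fourth most abundant receptor, nhr-8, differed in the other direction. At 0 h it stood at 8.91, 14.7, 11.3 and 14.3 RPKM in TIR1 and 13, 10.2, 10.8 and 11 RPKM in Pol I-AID. At 24 h it stood at 13.6, 13, 7.18 and 13.7 RPKM in TIR1 and 16.4, 21.6, 17.8 and 23.8 RPKM in Pol I-AID. All Pol I-AID libraries at 12 h (15.5 to 22.9 RPKM) and at 24 h lay above all TIR1 libraries of the same time. The log2 fold change between the strains was 0.50 at 12 h (SE 0.19, edgeR FDR 0.132) and 0.75 at 24 h (SE 0.19, edgeR FDR 0.00827, under 2-fold). Against 0 h nhr-8 was higher in Pol I-AID by 0.68 at 12 h (edgeR FDR 0.0126) and by 0.82 at 24 h (edgeR FDR 0.00144), both under 2-fold, and in TIR1 its changes were 0.05 and -0.06 (edgeR FDR 0.954 and 0.886). The difference between the changes to 24 h was 0.88 (SE 0.27, edgeR FDR 0.0401). It was lost without TIR1 0 h replicates 2 or 4, TIR1 24 h replicate 3, Pol I-AID 0 h replicates 2, 3 or 4, or Pol I-AID 24 h replicates 2 or 4 (FDR 0.0632 to 0.0907).

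**Figure D5:**
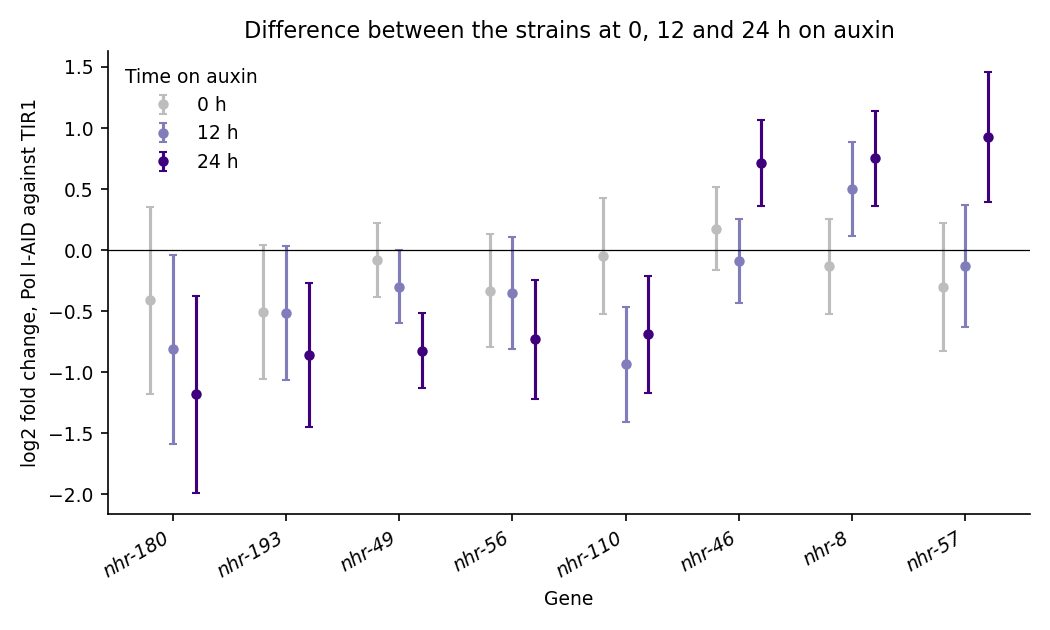
Difference between Pol I-AID and TIR1 (log2 fold change) at 0, 12 and 24 h on auxin for the 8 nhr genes with an FDR under 0.05 at 24 h, with 95% intervals from the edgeR fit. The 8 were chosen by the 24 h test, so their 24 h intervals lie on 1 side of 0 by selection, with nhr-49 at -0.82 and nhr-8 at 0.75. Each interval spans 0 at 0 h, though nhr-193 stood at -0.50 there, without overlap of the libraries, and nhr-180 at -0.41. Of the 8, nhr-49, nhr-57 and nhr-8 passed the FDR for the difference in change to 24 h.

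Of the other members past the FDR at 24 h, nhr-46 was higher in Pol I-AID, at 5.16, 7.49, 6.49 and 8.27 RPKM against 3.41, 4.57, 4.12 and 4.43 RPKM in TIR1 (0.71, SE 0.17, edgeR FDR 0.00559). It has no stated role here and is described because of this test. At 0 h its values were 7.07 to 9.17 RPKM in Pol I-AID and 5.76 to 8.42 RPKM in TIR1, and from 0 to 24 h it was lower by 0.84 on the log2 scale in TIR1 (edgeR FDR 0.00119) and by 0.31 in Pol I-AID (edgeR FDR 0.192). The receptor nhr-57, which is induced by hypoxia through HIF-1, stood at 2.9, 2.91, 2.9 and 2.62 RPKM in Pol I-AID and 1.3, 2.18, 1.34 and 1.08 RPKM in TIR1 (0.93, SE 0.26, edgeR FDR 0.0165). The ranges did not overlap, but the FDR was 0.0502 without TIR1 24 h replicate 3 and 0.0784 without TIR1 24 h replicate 4.

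The 2 members called between the strains were both rare and rested on single libraries. At 12 h nhr-13, a partner of NHR-49 and NHR-80 in fatty acid desaturation, stood at 0.748, 0.958, 0.874 and 1.45 RPKM in Pol I-AID and at 2.97, 2.51, 2.16 and 1.65 RPKM in TIR1 (-1.19, SE 0.33, edgeR FDR 0.0326). The ranges did not overlap, yet the call was lost when replicate 1, 2 or 3 at 12 h was left out in either strain (FDR 0.0549 to 0.121). At 24 h nhr-180 stood at 0.396, 1.72, 1.01 and 1.07 RPKM in Pol I-AID and at 2.48, 2.07, 2.19 and 2.86 RPKM in TIR1 (-1.18, SE 0.39, edgeR FDR 0.0454). That call was lost without any 1 of the TIR1 24 h libraries or Pol I-AID 24 h replicates 1, 3 and 4 (FDR 0.0568 to 0.144). The other 3 members past the FDR at 24 h, nhr-56, nhr-193 and nhr-110, were lower in Pol I-AID by 0.73, 0.86 and 0.69 on the log2 scale, with edgeR FDR values of 0.0405, 0.0457 and 0.0498. They lost this status without 4, 6 and 7 single libraries. At 0 h their strain differences were -0.33, -0.50 and -0.05 (edgeR FDR 0.715, 0.606 and 0.995), and the libraries of nhr-193 did not overlap. At 12 h nhr-110 and nhr-101 passed the FDR, at -0.94 (edgeR FDR 0.0134) and -0.84 (edgeR FDR 0.0279). The first lost it without Pol I-AID 12 h replicate 1 (FDR 0.0585), and the second without TIR1 12 h replicates 1 or 3 or Pol I-AID 12 h replicates 1 to 3 (FDR 0.0566 to 0.121).

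Over the 134 members the strain difference at 12 h correlated with that at 24 h at 0.583 (all genes 0.387), as a description over genes from separate libraries that share strains and batches. The median strain difference of the members was -0.10 at 0 h, -0.13 at 12 h and -0.12 at 24 h, beside 0.04, -0.01 and 0.00 for all genes, and it was thus below that of all genes at 0 h too.

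Members whose change over time differed between the strains were few. At 12 h 1 was called lower in Pol I-AID (0.746%, against 2.07% of all genes, 1.67% higher and 0.406% lower). At 24 h 3 were called higher and 2 lower (3.73%, against 5.88% of all genes, 3.51% higher and 2.38% lower). By the FDR alone 1 and 7 passed (background 2.94% and 7.66%). Scaled to total counts or to counts outside the vitellogenins, 1 was called higher at 12 h, 4 were called higher at 24 h and 0 lower. The medians of all genes then lay at 0.11 to 0.22. The 12 h member of the main fit, nhr-101, is uncertain since 63.4% of its exon bases are shared with a gene on the opposite strand and the kit does not keep strand. At 24 h nhr-34 was called at -1.13 (edgeR FDR 0.0365). It stood at 0.957, 1.05, 0.411 and 1.07 RPKM at 0 h and 1.84, 1.72, 1.9 and 1.89 RPKM at 24 h in TIR1, and at 1.08, 1.03, 1.38 and 1.65 RPKM and 1.35, 1.22, 1.13 and 0.923 RPKM in Pol I-AID. Thus the TIR1 libraries separated between the time points and those of Pol I-AID overlapped.

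Others called on this contrast at 24 h were nhr-57 (1.23, edgeR FDR 0.0352), nhr-4 (1.60, edgeR FDR 0.0353) and nhr-78 (-1.07, edgeR FDR 0.0486). Before auxin nhr-4 stood at 0.343 to 0.54 RPKM in Pol I-AID and 0.576 to 0.908 RPKM in TIR1, without overlap (-0.78, edgeR FDR 0.474), and at 24 h at 0.563 to 1.24 and 0.304 to 0.643 RPKM, which overlapped (0.83, edgeR FDR 0.108), so its value includes a difference at 0 h. The call of nhr-6 (edgeR FDR 0.048) rests on 25, 4, 0 and 0 counts at 0 h and 0, 0, 0 and 2 counts at 24 h in TIR1, and on 0, 4, 0 and 4 and then 19, 19, 0 and 8 counts in Pol I-AID. The fitted fold is therefore no measure of its size. Each of these 6 calls was lost without single libraries, 8 to 14 of those in the contrast, and between 0 and 5 members were called at 24 h when 1 library was left out. The count was 0 without Pol I-AID 0 h replicate 3, Pol I-AID 24 h replicate 2 or TIR1 24 h replicate 4.

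By role, the vitamin B12 and propionate receptors nhr-10, nhr-68 and nhr-114 were called in none of the 9 comparisons by edgeR. Under the FDR alone nhr-68 was higher in TIR1 at 24 h, 15.7 ± 2.28 against 9.94 ± 1.6 RPKM at 0 h (0.67, edgeR FDR 0.0265). Of the fat metabolism receptors, nhr-62 and nhr-76 rose in TIR1 at 24 h, and in Pol I-AID nhr-62 rose while nhr-49 and nhr-13 fell. The most abundant, nhr-80, differed between the strains by 0.27 at 24 h (edgeR FDR 0.356, 95% interval -0.09 to 0.64). For nhr-66, a cofactor of NHR-49 in repressing lipid genes, the levels at 0 and 24 h were 4.75 ± 0.545 and 7.44 ± 1.61 RPKM in TIR1 (0.64, edgeR FDR 0.00389) and 5.45 ± 0.375 and 7.47 ± 0.841 RPKM in Pol I-AID (0.46, edgeR FDR 0.0201), both under 2-fold. In the stress and pathogen group, nhr-14 and nhr-86 were called over time, nhr-57 in the difference between the strains, and nhr-42, nhr-45 and nhr-176 in no comparison.

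Partners and known downstream genes were read from lists that were chosen with earlier results known. Of the partners, the Mediator subunit mdt-15, the SREBP relative sbp-1 and the acetyltransferase cbp-1, none was called in any comparison by edgeR. Under the FDR alone sbp-1 was higher in Pol I-AID at 24 h (0.76, edgeR FDR 0.0153). Of 8 genes known to depend on NHR-49, 1 was called higher at 12 h between the strains, the palmitoyl-CoA desaturase gene fat-5 (1.45, edgeR FDR 0.0216), and 1 lower at 24 h, the acyl-CoA synthetase gene acs-2. The latter had no counts in any of the 4 Pol I-AID libraries at 24 h and at most 1.37 CPM in TIR1, so no fold is given. The median strain difference of these 8 genes at 24 h was -0.47, beside 0.00 for all genes, and the members went both ways. Higher in Pol I-AID were fat-7, fat-5 and icl-1, at 0.46 (edgeR FDR 0.0542), 0.40 (edgeR FDR 0.568) and 0.08 (edgeR FDR 0.883). The other genes of this list had a lower mean CPM in Pol I-AID, namely acs-2, fat-6, fmo-2, cpt-5 and hacd-1. Of these acs-2 alone was called at 24 h. For cpt-5 every Pol I-AID library (6.95 to 9.06 CPM) lay below every TIR1 library (11.2 to 16.8 CPM). The same separation held for fmo-2 (30.8 to 40.8 against 61.8 to 124 CPM), whereas the libraries of hacd-1 overlapped. The share of all genes separated in this way is not given here, so these ranges are a description alone.

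Also at 24 h, the stearoyl-CoA desaturase gene fat-6 stood at 59.1, 57.1, 62.9 and 58.9 CPM in Pol I-AID and at least 88.9 CPM in every TIR1 library (-0.74, edgeR FDR 0.000122, under 2-fold). At 12 h fat-6 stood at 108 to 125 CPM in Pol I-AID and 82.7 to 109 CPM in TIR1. Its paralogue fat-7 rose in Pol I-AID at 12 h, from 24.4 to 34.4 CPM to 83.5 to 104 CPM (1.58, edgeR FDR 1.04e-07). This change differed from that in TIR1 (1.36, edgeR FDR 0.000688). Reads of these 2 paralogues were counted only where they aligned uniquely. The flavin monooxygenase gene fmo-2 was near 0 at 0 h (at most 0.965 CPM) and reached 61.8 to 124 CPM in TIR1 and 30.8 to 40.8 CPM in Pol I-AID at 24 h, and it was called higher in all 4 comparisons over time.

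Of the 5 propionate shunt genes, which NHR-10 and NHR-68 induce, none was called in any comparison by edgeR. In Pol I-AID at 12 h against 0 h their median was -0.73, beside -0.01 for all genes, and 4 passed the FDR by less than 2-fold, namely acdh-1 (-0.71, edgeR FDR 7.09e-05), ech-6 (-0.73, edgeR FDR 8.29e-05), hach-1 (-0.86, edgeR FDR 1.18e-05) and hphd-1 (-0.92, edgeR FDR 7.39e-07). In TIR1 the median was -0.19. The change differed between the strains for hach-1 (-0.92, edgeR FDR 0.00255) and hphd-1 (-0.73, edgeR FDR 0.00528), also by less than 2-fold. Of 7 tested genes of the methionine/S-adenosylmethionine cycle, which NHR-114 induces, 1, the methionine synthase reductase gene mtrr-1, fell in TIR1 at 24 h (-1.12, edgeR FDR 0.00202). Of the 2 tested genes that make or limit dafachronic acid, the ligand of DAF-12, none was called by edgeR. The 1 tested gene of those that depend on NHR-86, irg-4, rose in both strains at both times, on the log2 scale by 2.92 at 24 h in TIR1 and by 3.35 at 24 h in Pol I-AID.

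Receptor genes are often neighbours on the chromosome, a property that the choice of members did not use. By gene order in the WBcel235 annotation, 135 of the 268 lie directly beside another nhr gene, in 43 runs. Being in a run did not go with being tested: 51.5% of the tested and 49.3% of the untested members were in one. There were 16 runs of at least 3 genes, with 81 genes. In 5 of these, with 24 genes, no member was tested, among them the longest, the 9 genes from nhr-185 to nhr-124. In 9 runs with 49 genes all members or all but 1 were tested, of which 3 were tested whole, and 2 runs lay between.

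The changes along 2 runs are given as examples, chosen after their values were seen. In the run nhr-228, nhr-227, nhr-225, nhr-115 and nhr-226, which holds nhr-115, the log2 fold changes at 24 h were -0.87, -0.44, -1.74 and -0.67 in TIR1 and -0.89, 0.17, -1.80 and -0.90 in Pol I-AID for nhr-228, nhr-227, nhr-115 and nhr-226, and nhr-225 was not tested. Of these nhr-115 was called, and nhr-228 in both strains and nhr-226 in Pol I-AID passed the FDR alone. In the run that holds nhr-202, the values of its neighbours nhr-203 and nhr-201 were 0.80 (edgeR FDR 0.0309) and 1.33 (edgeR FDR 0.215) in TIR1 and 0.82 (edgeR FDR 0.0141) and 0.88 (edgeR FDR 0.34) in Pol I-AID, so that nhr-203 passed the FDR in both strains by less than 2-fold and nhr-201 in neither. Reads from such related neighbours were kept only where they aligned at 1 place, so members that share near-identical exons may be counted too low.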

How the data were processed

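Intestinal RNA from pooled dissected intestines was amplified with a SMART-Seq kit, which does not keep strand, and sequenced. The authors trimmed reads, aligned them to the ce10 genome with spliced alignment in QuasR, kept uniquely mapped reads, and deposited raw counts per gene over WormBase WS220 exons, with no normalization, together with exon lengths. Counts were used as deposited. Among the low counts above 0 in a library, the only ones examined for this, between 70.1% and 82.4% were even numbers. The source of this property was not tested. If both ends of a read pair were counted, the fragments behind a count, the floor of 3 counts included, would be fewer than the count. No libraries were identical. Symbols, neighbouring genes and exon overlaps were taken from the WBcel235 annotation, whose build differs from that of the counts, so no coordinates are given.

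Library sizes were scaled by TMM, genes filtered with filterByExpr, and 1 model of 6 group means was fitted over 24 libraries with the quasi-likelihood test of edgeR 4.0.16 in R 4.3.3 (18 residual degrees of freedom, common dispersion 0.111), with p-values adjusted over 6903 genes. CPM and RPKM were computed from these scaled sizes. A call needed an FDR under 0.05 and at least a 2-fold change. Named genes were the 10 of highest mean RPKM, up to 6 called members per direction and contrast, and members of the role lists. The members and lists were chosen with earlier results of these data known. Alternatives used DESeq2 1.42.0, other scalings and filters, a replicate block, an exon length correction, and fits without single replicates or libraries. Tested on counts simulated for Pol I-AID against TIR1 at 24 h over 6717 genes, the fit recovered 31 of 97 genes changed 2-fold (32%) and 68 of 98 changed 4-fold (69.4%) at the FDR alone, with 3 false calls, and gave 5 and 1 of them the wrong sign, whether recovered or not.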

Additional observations from a re-analysis of the deposited data

Results flagged for a closer look

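Each of the 45 named members was looked at in each group of 4 libraries, 270 groups in all, for a highest or lowest library whose gap to the nearest other exceeded Dixon's 95% critical share of the group's range. Chance marks about 5% of such groups, and 20 were marked.

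Among the abundant receptors, nhr-49 stood at 37.2 RPKM in TIR1 0 h replicate 4 (others 27.7 to 28.7 RPKM). It stood at 21.7 RPKM in TIR1 12 h replicate 2 (others 30.4 to 32.2 RPKM) and at 26.6 RPKM in Pol I-AID 12 h replicate 1 (others 22 to 22.4 RPKM). The level of nhr-8 was 7.18 RPKM in TIR1 24 h replicate 3 (others 13 to 13.7 RPKM). In Pol I-AID at 24 h, nhr-58 was at 20.4 RPKM in replicate 3 (others 24.3 to 24.6 RPKM), nhr-106 at 8.38 RPKM in replicate 4 (others 9.98 to 10.2 RPKM), and nhr-232 and nhr-176 at 16.7 and 15.4 RPKM in replicate 2 (others 14 to 14.4 and 10.8 to 11.6 RPKM). In Pol I-AID at 0 h, nhr-68 was at 16 RPKM in replicate 3 (others 8.87 to 9.35 RPKM).

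Of the other members, nhr-115 was at 8.31 RPKM in TIR1 12 h replicate 4 (others 2.86 to 3.51 RPKM) and nhr-273 at 1.06 RPKM in TIR1 12 h replicate 3 (others 1.49 to 1.56 RPKM). In TIR1 at 0 h, nhr-21 was at 0.141 RPKM in replicate 4 (others 0.281 to 0.301 RPKM), nhr-64 at 2.98 RPKM in replicate 3 (others 4 to 4.1 RPKM) and nhr-6 at 0.506 RPKM in replicate 1 (others 0 to 0.0723 RPKM). The last was also the only TIR1 24 h value above 0, at 0.0369 RPKM in replicate 4. In Pol I-AID at 0 h, nhr-286 was at 2.27 RPKM in replicate 2 (others 3.43 to 3.57 RPKM) and nhr-42 at 3.47 RPKM in replicate 4 (others 2.93 to 2.95 RPKM). In Pol I-AID 12 h replicate 3, nhr-4 was at 0.733 RPKM (others 0.451 to 0.479 RPKM). In Pol I-AID 24 h replicate 4, nhr-57 was at 2.62 RPKM (others 2.9 to 2.91 RPKM) and nhr-86 at 6.72 RPKM (others 10.7 to 11.2 RPKM).

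The change over time differed between the strains by the test of the difference in 8 cases. At 12 h this was nhr-101, at -1.27 on the log2 scale (edgeR FDR 0.0288). At 24 h the values were -0.74 for nhr-49 (edgeR FDR 0.026), 1.23 for nhr-57 (edgeR FDR 0.0352), 1.60 for nhr-4 (edgeR FDR 0.0353), -1.13 for nhr-34 (edgeR FDR 0.0365), 0.88 for nhr-8 (edgeR FDR 0.0401) and -1.07 for nhr-78 (edgeR FDR 0.0486). For nhr-6 the fit gave 6.35 (edgeR FDR 0.048), which is no measure of size, since it depends on the prior count with most libraries near 0. Leaving out single libraries where the call was lost moved it from 4.07 to 8.91 (FDR 0.0595 to 0.306).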

How the results depend on the processing

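For 67 results on single members, 1432 alternative values were computed, of which 1077 kept their direction and side of the threshold, 355 kept their direction and lost the call, and none reversed. For 27 of the 67, among them nhr-49 between the strains at 24 h, no alternative lost the call. Leaving out replicate 1, whose strains had fewer outcrosses, lost 23 of the 67, and leaving out replicates 2, 3 and 4 lost 31, 32 and 19. Between the strains at 24 h, nhr-8 lost its FDR without replicates 2, 3 or 4 (0.75, 0.58 and 0.72) and nhr-46 without replicate 2 (0.70).

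With the FDR alone the number of members called was 3 and 8 between the strains at 12 and 24 h, 25 in TIR1 at 24 h, and 19 and 40 in Pol I-AID at 12 and 24 h. Requiring at least 10 counts in every library, which tests fewer genes, gave 0 and 0 between the strains, 2 and 5 over time in TIR1, 3 and 8 over time in Pol I-AID, and 1 for the difference in change at 24 h. DESeq2 gave 3 and 4 between the strains and 4 for the difference in change at 12 h. With no count filter the numbers were 2 and 2 between the strains and 1 for the difference in change at 24 h. Fits of only the groups compared gave 0 between the strains at 12 h, 0 in TIR1 at 12 h, and 0 and 0 for the difference in change. Scaling to total counts gave 2 and 2 between the strains and 23 in TIR1 at 24 h, scaling to counts outside the vitellogenins 2 between the strains at 12 h, and removing the exon length trend 2 and 3. The cause was not tested.

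The replicate number linked the samples in part, since replicate 1 came from its own lines in every group. Correlations of same-numbered deviations were weak, from -0.0886 to 0.173, with 3 of 28 pairs over 0.1 and 9 best with their own number. Between the strains, replicate 1 reached 0.173 at 12 h (other numbers at most 0.0441) and -0.05 at 24 h (other numbers up to 0.0555). Weak correlations cannot show that samples were unpaired, and the main fit held no replicate term. The replicate block gave 2 between the strains at 24 h and 2 and 3 for the difference in change at 12 and 24 h, and lost 8 of the 67 calls. These were nhr-56, nhr-193 and nhr-110 between the strains at 24 h (FDR 0.0527, 0.062 and 0.0565), nhr-11 in TIR1 at 12 h (FDR 0.0525), nhr-273 and nhr-286 in TIR1 at 24 h (FDR 0.0512, and -0.97 at FDR 0.0144), and nhr-6 and nhr-78 for the difference in change at 24 h (FDR 0.122 and 0.0719).

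Without single replicates or libraries the number called ranged from 0 to 0, 0 to 2 and 0 to 2 between the strains at 0, 12 and 24 h, 0 to 7 and 11 to 17 over time in TIR1, 6 to 9 and 20 to 26 over time in Pol I-AID, and 0 to 2 and 0 to 5 for the difference in change. The lowest value in Pol I-AID at 12 h, 6, was without replicate 3. Without a replicate, measured members ranged from 141 to 146 in place of 138. The rule then covered fewer libraries per group, so this number could not fall. In the full set 82 had at least 3 counts in all 24 libraries. The floor of 3 counts corresponded to 0.0919 to 0.764 CPM. Calls of members near or under it, such as nhr-62, nhr-11 and nhr-6, give no reliable size at this depth. Which differences could be detected there was not tested.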

Other observations

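The summed counts of the family took a small share of the counts outside the vitellogenin genes. In TIR1 the share was 0.244% ± 0.0100 (SD, n = 4) at 0 h, 0.249% ± 0.0208 at 12 h and 0.241% ± 0.00645 at 24 h. In Pol I-AID it was 0.221% ± 0.0119, 0.273% ± 0.00957 and 0.263% ± 0.0187. No test was run on these shares.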
